A study of Mus musculus with 12 samples.

Results

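The data described here are the levels of 10 transcription factors of the urothelium, the lining of the bladder, in NU1 cells, a mouse urothelial line that became immortal by repeated passaging. The factors are Pparg, Rxra, Gata3, Foxa1, Elf3, Ehf, Grhl3, Klf4, Klf5 and Trp63. They were chosen by name from the 23337 gene symbols of the count table, and all 10 were found in it. Earlier results of these data were known when they were chosen. RNA sequencing gave 12 libraries in 4 groups of 3. Proliferating cells carried either the hairpin shNT, the control, or the hairpin sh4 against Stag2, which encodes a subunit of the cohesin ring. Quiescent cells carried the same hairpins. They had been grown to confluence in complete medium, then kept in it with 1 µM rosiglitazone and 0.5 µM erlotinib, and were collected on day 7. Rosiglitazone is a ligand that activates PPARG, and erlotinib inhibits the EGF receptor kinase. Each group had 1 library from each of experiments 5, 7 and 9, which the labels also number as batches 3, 1 and 2.

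All groups share the NU1 background and its medium with serum and EGF. Hairpins were delivered by lentivirus, and 1 hairpin against Stag2 was sequenced, so loss of Stag2 and any other effect of sh4 cannot be told apart. Confluence, both drugs and the time in culture differ together between the states and cannot be told apart either. Nothing in the labels says that the 3 libraries of a group came from separately derived lines, so p-values measure the spread between experiments.

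In the urothelium, PPARG binds DNA as a heterodimer with RXRA and drives luminal differentiation together with GATA3 and FOXA1. ELF3 and EHF are epithelial ETS factors, and ELF3 is a known PPARG target in urothelial cells. GRHL3 belongs to the grainyhead family and is needed for terminal differentiation and the barrier of the superficial layer. KLF4 and KLF5 are zinc-finger factors of epithelial renewal and maturation. Trp63 encodes p63, the defining factor of basal cells.

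Promoter sequences are shown for the receptor Pparg, whose level differed most with sh4 in quiescent cells, and for Foxa1, because the letters of a factor family among these genes lie in them. RefSeq promoters of GRCm38.p6 matched 7 of the 10 genes, in 10 entries. The 250 bases before each start were searched on both strands for 6 strings, none of which contains another. They were AGATAA for GATA factors, TGTTTAC for forkhead factors and CCGGAAG for ETS factors. The others were GGGTGTG for Kruppel-like factors, AGGTCA for nuclear receptors and AACCGG for grainyhead factors. The first window is chr12:57546186-57546312 on the minus strand, and the capitals mark a reverse forkhead match that begins 141 bases before the start. The second is chr6:115362173-115362299 on the plus strand, where the capitals mark a Kruppel-like match that begins 116 bases before the start. Both windows lie inside the GENCODE span of the same gene, downstream of its outermost annotated start.
Foxa1: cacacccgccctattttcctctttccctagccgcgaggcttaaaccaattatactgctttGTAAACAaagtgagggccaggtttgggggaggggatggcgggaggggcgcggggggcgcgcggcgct
Pparg: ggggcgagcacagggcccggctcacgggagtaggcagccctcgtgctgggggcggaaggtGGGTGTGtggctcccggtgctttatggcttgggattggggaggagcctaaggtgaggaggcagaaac

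The forkhead string was present in 3.166% of 32851 mouse promoters of this length, and the Kruppel-like string in 6.931%. Foxa1 also held a Kruppel-like match, read in reverse, at the first letters of its window. Pparg held the nuclear receptor string in each of 2 entries, 28 and 9 bases before the start, a string found in 14.02% of promoters. Rxra held the nuclear receptor string at 87 and 48 bases, the Kruppel-like string at 92 bases and, in another entry, the grainyhead string at 125 bases before the start. Elf3 held the grainyhead string at 68 bases before its start, a string found in 5.622% of promoters. The promoters of Gata3, Grhl3 and Klf4 held none of the strings, and no promoter of the set held the GATA string (9.988% of all promoters) or the ETS string (6.907%). These matches describe letters and do not show binding.

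Library totals ran from 14524429 to 21987539 counts. Stag2 was 113 to 145 CPM (counts per 1000000 of the TMM-scaled library total) in proliferating and 107 to 128 CPM in quiescent control libraries. It was 24.6 to 33.3 CPM and 9.43 to 15.3 CPM in the sh4 libraries, so every library matched its label. Epithelial markers were high, with Krt8 at 3493 to 9042 CPM and Cdh1 at 652 to 2311 CPM, while Vim did not exceed 17 counts. Of the uroplakins, plaque proteins that define superficial urothelial cells, Upk3a had at most 1 count in a library, Upk2 at most 32 and Upk1b at most 38, while Upk1a (12 to 87 counts) and Upk3b (8 to 152 counts) were detected at low levels in all 12 libraries. Summed CPM stayed at or under 2.27 for 7 fibroblast markers, 0.408 for 4 smooth muscle markers and 0.239 for 4 endothelial markers. For 5 immune markers it was higher, at 15.5 to 169 CPM.

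Set against exon length, the factors differed widely in mean abundance, with ranges over libraries that overlapped between neighbours. Mean levels per kilobase of exon over the 12 libraries were 113 CPM for Elf3 and 59.0 for Ehf, the most abundant of the 10. Rxra (20.6), Gata3 (13.1), Klf4 (11.7), Klf5 (11.4) and Foxa1 (10.8) formed a middle range in which neighbours overlapped between libraries. Pparg stood at 1.35 and Grhl3 at 0.399 CPM per kilobase. The length is that of all annotated exons of a gene, whichever isoform the cells use.

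Pparg and Grhl3 each had more abundant relatives. Ppard, the PPAR family member of broad expression, stood above Pparg in each of the 12 libraries on the per-kilobase scale, by a ratio of 2.41 to 35.7 with a median of 9.60. Rxra exceeded Pparg by a median ratio of 17.3. Grhl2, the grainyhead factor of simple epithelia, exceeded Grhl3 by a median of 43.0 (15.0 to 229). Rxrg and Spdef, an ETS factor of secretory cells, had 0 counts in all 12 libraries.

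**Figure D1:**
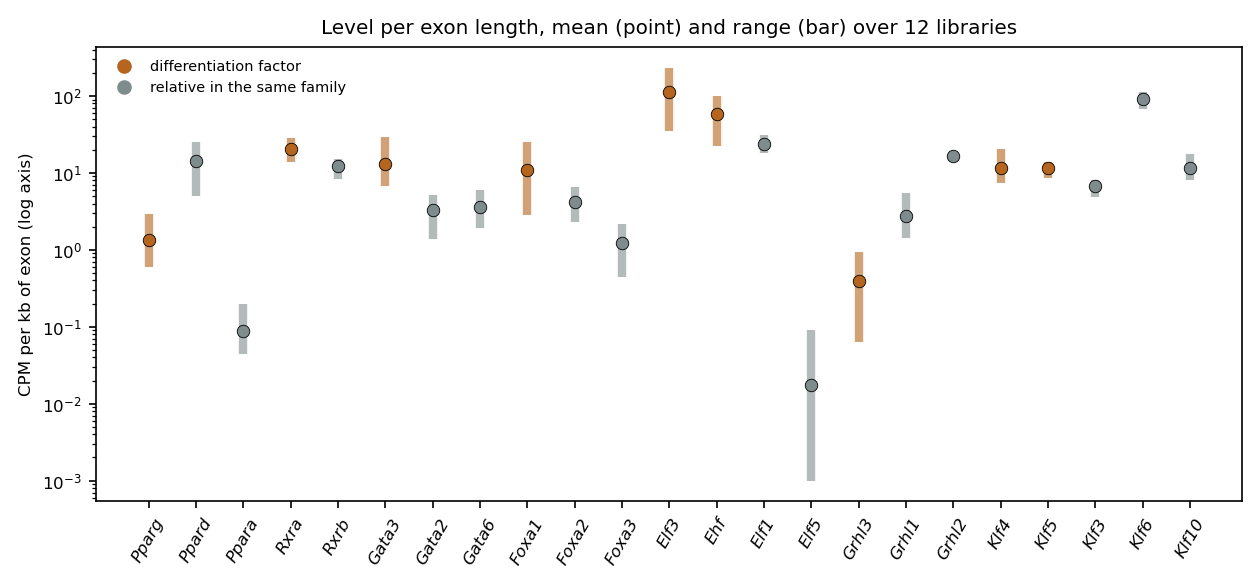
Mean level (point) and range over 12 libraries (bar) in CPM per kilobase of exon, on a log axis, for 9 of the factors (orange) and relatives in their families (grey). Elf3 and Ehf lie highest among the orange points and Grhl3 lowest. The bar of Elf5, at 0 in 5 libraries, ends at the bottom of the axis.

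Trp63 had 0 counts in every library, out of 207796550 counts in all. A count of 0 allows, at 3 counts, up to 0.0144 CPM over all libraries together and 0.136 to 0.207 CPM in a single library, for counting error only. The gene spans chr16:25683763-25892102 (GRCm38), entered no test and gets no fold change. Its relative Trp73 had 0 counts in 10 libraries and 1 count in the others, while Trp53 stood at 129 to 272 CPM. The basal keratins Krt5 (6 to 115 counts) and Krt14 (3 to 189 counts) were detected at low levels in the same cells.

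The first comparison asked how the factors differ between quiescent and proliferating control cells. Gata3, Elf3 and Ehf were higher in quiescent control cells, by 2.76-fold, 2.41-fold and 2.21-fold, and passed the test. Foxa1 was 2.58-fold higher and stood just outside the threshold. Pparg, Rxra, Grhl3, Klf4 and Klf5 did not pass. Of the 9 factors tested, 3 were called at an adjusted p under 0.05 in edgeR's quasi-likelihood test, all higher, against 20.0% of all 12406 genes tested in either direction and 8.33% higher. The median log2 fold change was 1.04 over the 9 factors and 0.0047 over all genes. The factors were chosen with earlier results of these data known, so setting them against all genes is a description. Libraries of the same experiment deviated from their group means together, so the same model was also fitted with the experiment as a replicate block. With the block 5 of the 9 factors were called, all higher, against 35.3% of all genes in either direction and 16.8% higher. Quiescent values did not overlap proliferating ones for 2 of the 9 factors, Gata3 and Ehf, and for 35.6% of all genes in either direction. The summed immune markers were 15.5 to 33.2 CPM in proliferating and 39.6 to 61.8 CPM in quiescent control libraries, and their part in these results was not tested. In these bulk samples more RNA per cell and more cells of a type cannot be told apart.

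Gata3 encodes a zinc-finger factor that keeps the urothelium in its luminal fate (chr2:9857078-9890034). In proliferating control libraries it stood at 29.8, 27.5 and 26.5 CPM in experiments 5, 7 and 9, and in quiescent control libraries at 72.5, 41.4 and 118 CPM. The proliferating values lay close together, every quiescent value lay above them, and experiment 7 gave the smallest difference. The group means were 27.97 CPM ± 1.70 and 77.3 CPM ± 38.5 (SD, n = 3). The log2 fold change was 1.47 (SE 0.40, adjusted p 0.0263 in edgeR), and 1.33 with the block (adjusted p 0.00647 in edgeR). Without the block the call was lost when 1 library was left out, namely proliferating control of experiment 7 (adjusted p 0.0822) or 9 (0.0821) or quiescent control of experiment 5 (0.0567) or 9 (0.104). Annotated exons of Gata3 overlap 77 bases of 9230102O04Rik on the same strand and 155 bases of an antisense gene. Whether counting used strand is not given in the sources used here.

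Foxa1 encodes a forkhead pioneer factor that opens chromatin for hormone receptors and GATA factors (chr12:57540628-57546916). Its proliferating control values were 35.4, 17.5 and 9.49 CPM in experiments 5, 7 and 9, and its quiescent control values were 84.8, 33.8 and 42.4 CPM. The groups overlapped, since the proliferating library of experiment 5 exceeded the quiescent one of experiment 7, yet quiescence was higher within each experiment. On the log2 scale the fold change was 1.36 (SE 0.46, adjusted p 0.0576 in edgeR). With the block it was 1.40 (adjusted p 0.00158 in edgeR), and DESeq2 without the block gave an adjusted p of 0.0123. Leaving out proliferating control of experiment 5 (adjusted p 0.0107 in edgeR) or quiescent control of experiment 7 (0.0451) also brought it past the threshold.

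Elf3, the most abundant of the set per kilobase of exon, lies at chr1:135253575-135258568. It stood at 216, 108 and 77.3 CPM in proliferating control libraries and at 394, 192 and 379 CPM in quiescent control libraries. The library of experiment 7 was the lowest of the quiescent group and fell within the range of the proliferating group. It differed by a log2 fold change of 1.27 (SE 0.40, adjusted p 0.0443 in edgeR), and 1.30 with the block (adjusted p 0.00259 in edgeR). The call without the block was lost in 8 of the 12 fits that each left out 1 library, with edgeR adjusted p-values of 0.0506 to 0.145. The libraries concerned were experiments 7 and 9 of proliferating control, 7 and 9 of proliferating sh4, 5 and 9 of quiescent control, and 5 and 9 of quiescent sh4. Exons of Elf3 overlap 162 bases of an antisense gene.

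Ehf, the other epithelial ETS factor, lies at chr2:103263433-103303278. Proliferating control libraries held 329, 177 and 126 CPM and quiescent control libraries 561, 426 and 408 CPM. All quiescent values lay above all proliferating ones. The fitted log2 fold change was 1.14 (SE 0.35, adjusted p 0.0390 in edgeR), and 1.23 with the block (adjusted p 0.000863 in edgeR). The call without the block was lost in 7 of the 12 fits without 1 library, with edgeR adjusted p-values of 0.0509 to 0.132. These libraries were experiments 7 and 9 of proliferating control, 5, 7 and 9 of quiescent control, and 5 and 9 of quiescent sh4. With the block, Gata3, Foxa1, Elf3 and Ehf were each called in 12 of 12 such fits, an alternative chosen after seeing the data.

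Of the heterodimer partners, Rxra (chr2:27676440-27762957) stood at 134, 77.5 and 90.4 CPM in proliferating and 145, 102 and 155 CPM in quiescent control libraries. The groups overlapped, and quiescence was higher within each experiment, by 0.12, 0.40 and 0.77 on the log2 scale. The log2 fold change was 0.42 (SE 0.26, adjusted p 0.290 in edgeR), and 0.43 with the block (adjusted p 0.0313 in edgeR). The call with the block was lost without proliferating control of experiment 7 (0.0859) or 9 (0.144) and without quiescent control of experiment 7 (0.0736) or 9 (0.153). Pparg (chr6:115360951-115490399) stood at 3.703, 2.77 and 7.73 CPM in proliferating and at 5.38, 4.34 and 8.65 CPM in quiescent control libraries. Its level was highest in experiment 9 in both states, and the difference between states passed neither fit (log2 fold change 0.37, SE 0.42, adjusted p 0.567 in edgeR, with the block 0.223).

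Grhl3 (chr4:135541888-135573630) was close to the limit of what these depths resolve, with 3 to 45 counts in a library. It stood at 1.12, 0.346 and 0.341 CPM in proliferating and at 0.897, 1.28 and 1.55 CPM in quiescent control libraries. The values were higher in quiescence in experiments 7 and 9 and lower in experiment 5, and the log2 fold change of 1.04 had an SE of 0.67 (adjusted p 0.296 in edgeR).

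The Kruppel-like factors did not pass and had no common direction. Klf4 (chr4:55527143-55532466) stood at 24.3, 31.9 and 49.8 CPM in proliferating and at 22.4, 62.8 and 26.2 CPM in quiescent control libraries. Quiescence was higher in experiment 7, lower in experiment 9 and little different in experiment 5 (0.97, -0.92 and -0.12 on the log2 scale). On the log2 scale the fold change was 0.07 (SE 0.43, adjusted p 0.925 in edgeR), and -0.01 with the block. Klf5 (chr14:99298691-99315036) varied least of the 9 detected factors (SD of log2 CPM 0.23 over the 12 libraries), at 51.4, 71.3 and 73.0 CPM in proliferating and 59.97, 50.9 and 58.7 CPM in quiescent control libraries. Its log2 fold change was -0.21 (SE 0.16, adjusted p 0.382 in edgeR).

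**Figure D2:**
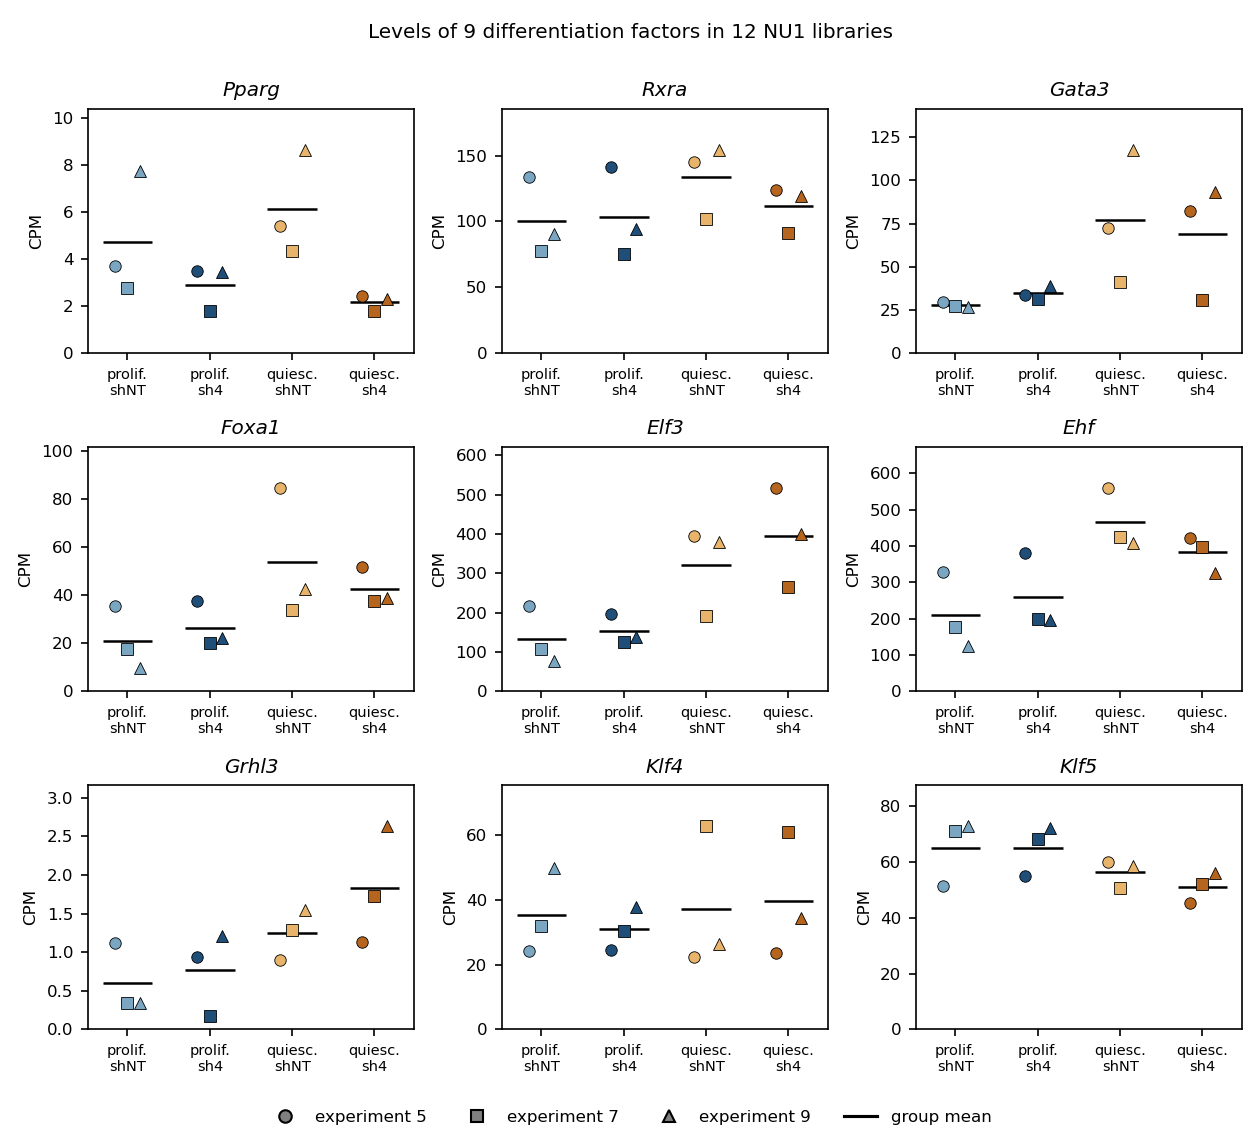
Level in CPM (vertical axes) of 9 factors in each of the 12 libraries, with proliferating and quiescent groups on the horizontal axes, marker shapes for the 3 experiments and a line at each group mean. Gata3 and Ehf show quiescent control values above all proliferating control values, and Pparg shows quiescent sh4 values below all quiescent control values.

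In cells with sh4, the same comparison of states called Elf3 alone of the 9 factors. Elf3 stood at 195, 126 and 139 CPM in proliferating and at 518, 266 and 401 CPM in quiescent sh4 libraries, without overlap. Its log2 fold change was 1.37 (SE 0.40, adjusted p 0.0352 in edgeR), a 2.58-fold higher level, and 1.34 with the block (adjusted p 0.00220 in edgeR). The call without the block was lost without proliferating sh4 of experiment 7 (0.121) or 9 (0.102) or quiescent sh4 of experiment 5 (0.123) or 9 (0.0894). Of all genes, 18.4% were called in this comparison in either direction and 7.59% were higher. Elf3 and Foxa1 showed no overlap between the states, 2 of the 9 factors, as did 37.2% of all genes. The summed immune markers were 26.2 to 55.3 CPM in proliferating and 110 to 169 CPM in quiescent sh4 libraries, and their part was not tested here either. With the block, Gata3, Foxa1, Elf3 and Ehf were called, 4 of the 9 factors and all higher, against 33.0% of all genes in either direction and 15.9% higher.

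Gata3 in the sh4 cells stood at 33.4, 31.3 and 39.0 CPM in proliferating and 82.5, 30.5 and 93.3 CPM in quiescent libraries. Quiescence was about level with proliferation in experiment 7 (-0.04 on the log2 scale) and higher in experiments 5 and 9 (1.30 and 1.26). It differed by a log2 fold change of 0.99 (SE 0.40, adjusted p 0.107 in edgeR, with the block 0.0412, in DESeq2 0.0504), and it passed without quiescent sh4 of experiment 7 (1.36, adjusted p 0.0195 in edgeR).

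Foxa1 in the sh4 cells stood at 37.4, 20.0 and 22.3 CPM in proliferating and 51.8, 37.6 and 39.0 CPM in quiescent libraries, with no overlap and a log2 fold change of 0.69 (SE 0.45, adjusted p 0.317 in edgeR, with the block 0.0348). Ehf stood at 381, 198 and 196 CPM and at 422, 398 and 327 CPM, with overlap and a log2 fold change of 0.57 (SE 0.34, adjusted p 0.275 in edgeR, with the block 0.0252). The other 5 factors passed neither fit. Grhl3 had the largest estimate among them (1.23, SE 0.65, adjusted p 0.213 in edgeR), and Klf5 was lower within each of the 3 experiments (-0.35, SE 0.16, adjusted p 0.149 in edgeR, with the block 0.0567).

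The knockdown comparisons asked whether sh4 changed these factors within each state. In proliferating cells no factor passed. Of the 9, 0 were called in edgeR with or without the block and 0 in DESeq2. At an unadjusted p under 0.05 there were 0 without the block and 1, Pparg, with it. Under this cut lay 228 of all 12406 genes without the block and 645 with it. Of all genes, 0.0242% were called, without and with the block. Pparg stood at 3.50, 1.79 and 3.44 CPM in proliferating sh4 libraries, below the control of its own experiment in each case (log2 fold change -0.70, SE 0.42, adjusted p 0.9998 in edgeR). Gata3 was the only factor without overlap between these groups, 31.3 to 39.0 CPM with sh4 and 26.5 to 29.8 CPM in control. Of all genes tested, 5.31% showed no overlap here. The log2 fold change of Gata3 was 0.31 (SE 0.40, adjusted p 0.9998 in edgeR).

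In quiescent cells Pparg was the factor that differed most with sh4. It stood at 5.38, 4.34 and 8.65 CPM in control and at 2.40, 1.79 and 2.29 CPM in sh4 libraries of experiments 5, 7 and 9. These rest on 71 to 145 counts in control and 30 to 53 counts in sh4 libraries. Every sh4 value lay below every control value, as it did for 19.1% of all genes in either direction, and the group means were 6.12 CPM ± 2.25 and 2.16 CPM ± 0.326 (SD, n = 3). The level was 2.83-fold lower (log2 fold change -1.50, SE 0.43). Without the block it did not pass (unadjusted p 0.00491, adjusted p 0.175 in edgeR). It passed with the block (-1.45, adjusted p 0.0207 in edgeR) and in DESeq2 without the block (-1.51, adjusted p 0.0405). So 0 of the 9 factors were called in edgeR without the block, against 0.435% of all genes, and 1 with it, against 3.55% of all genes.

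The call of Pparg with the block held in 7 of 12 fits without 1 library, added after seeing the data. It was lost without quiescent control of experiment 5 (adjusted p 0.0510 in edgeR), 7 (0.0795) or 9 (0.0963) and without quiescent sh4 of experiment 5 (0.0522) or 9 (0.0879), with log2 fold changes of -1.56, -1.41, -1.39, -1.55 and -1.21. The immune markers differed between the same groups, with sums of 110 to 169 CPM in quiescent sh4 and 39.6 to 61.8 CPM in quiescent control libraries. Csf1r, the receptor of macrophage growth factor, made up most of this sum with 10.5 to 163 CPM over all libraries. Cd3e had 0 counts in every library, and Ptprc, the common marker of blood cells, had 0 to 9. The part of these markers in the Pparg result was not tested.

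The partner Rxra stood at 124, 91.1 and 120 CPM in quiescent sh4 libraries and did not pass (log2 fold change -0.27, SE 0.26, adjusted p 0.767 in edgeR). The ratio of Rxra to Pparg per kilobase was 27.9, 27.5 and 28.3 in quiescent sh4 and 14.6, 12.7 and 9.67 in quiescent control libraries. The remaining 7 factors had log2 fold changes of -0.32 (Foxa1) to 0.55 (Grhl3), with edgeR adjusted p-values of 0.797 or more. Klf4 stood at 23.5, 61.1 and 34.3 CPM and Klf5 at 45.3, 52.1 and 56.0 CPM in quiescent sh4 libraries, and Grhl3 at 1.13, 1.73 and 2.64 CPM.

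**Figure D3:**
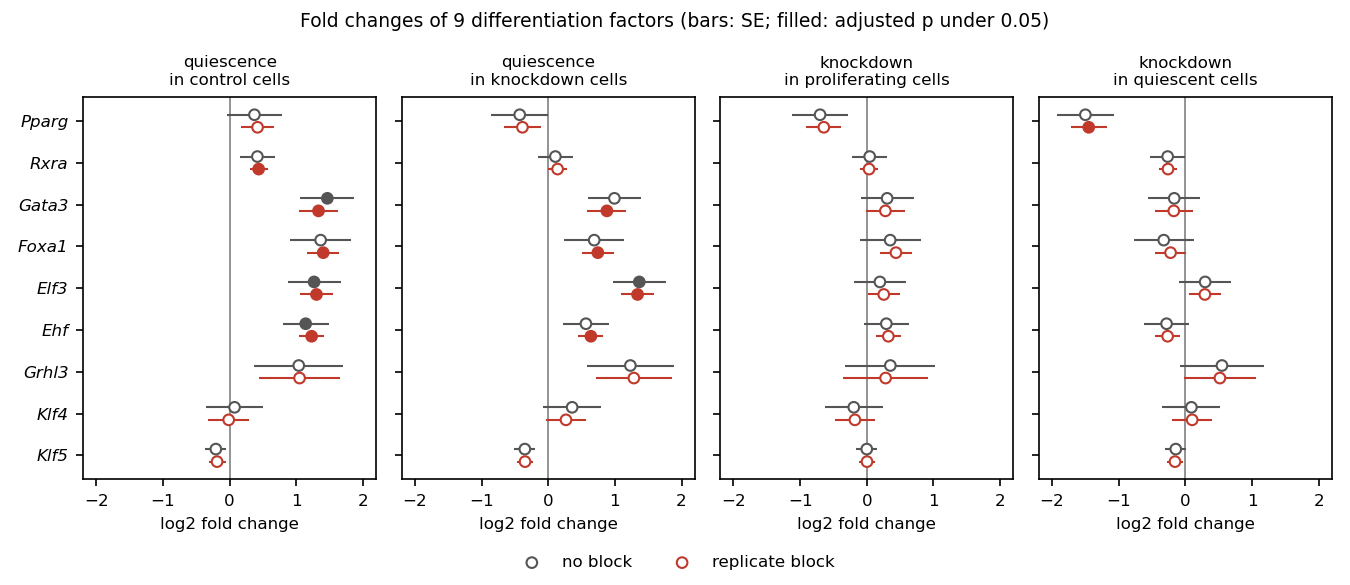
Log2 fold change (horizontal axes) of 9 factors (vertical axis) in 4 comparisons, without (grey) and with (red) the replicate block, where bars are 1 SE and filled points have an edgeR adjusted p under 0.05. Gata3, Elf3 and Ehf are filled in both fits for quiescence in control cells, and Pparg in quiescent cells is filled with the block alone.

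Whether the knockdown effect differed between the states was tested as an interaction. Of the 9 factors 0 were called in edgeR with or without the block, as was 0% of all genes, and 0 in DESeq2. At an unadjusted p under 0.05 there were 0 factors without the block and 1, Ehf, with it. The same cut held 219 of all 12406 genes without the block and 590 with it. The interaction of Pparg was -0.80 on the log2 scale (SE 0.60, unadjusted p 0.208, adjusted p 0.9997 in edgeR, unadjusted p 0.0551 with the block), and it was negative in all 3 experiments (-1.05, -0.63 and -0.73). Foxa1 gave -0.68 (SE 0.64, adjusted p 0.9997 in edgeR) and Elf3 0.0998 (SE 0.55). It was therefore not shown that sh4 lowered Pparg more in quiescent than in proliferating cells.

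By group mean, Pparg ran from quiescent control (6.12 CPM) through proliferating control (4.73 CPM ± 2.63) and proliferating sh4 (2.91 CPM ± 0.972) to quiescent sh4 (2.16 CPM ± 0.326), and each neighbouring pair in this order overlapped. Gata3 and Foxa1 ran from quiescent control through quiescent sh4 and proliferating sh4 to proliferating control. Ehf had the same order, with means of 465 CPM ± 83.4, 382 CPM ± 49.5, 258 CPM ± 106 and 211 CPM ± 106 (SD, n = 3). Elf3 was highest in quiescent sh4 (395 CPM ± 126), then in quiescent control (322 CPM ± 113), proliferating sh4 (153 CPM ± 37.1) and proliferating control (134 CPM ± 72.6). Neighbouring groups in these orders overlapped, except proliferating sh4 and proliferating control for Gata3 and quiescent sh4 and proliferating sh4 for Foxa1. For Rxra, Klf4, Klf5 and Grhl3 all neighbouring groups overlapped.

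Levels also varied between experiments. Within proliferating control cells, Foxa1, Elf3 and Ehf were all highest in experiment 5 and lowest in experiment 9, while Pparg and Klf4 were highest in experiment 9. In quiescent control cells experiment 7 had the lowest Gata3, Foxa1, Elf3, Rxra and Pparg and the highest Klf4. Within experiments, quiescence minus proliferation in control cells was above 0 in 3 of 3 for Pparg, Rxra, Gata3, Foxa1, Elf3 and Ehf. In sh4 cells this held for Foxa1, Elf3, Ehf and Grhl3.

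**Figure D4:**
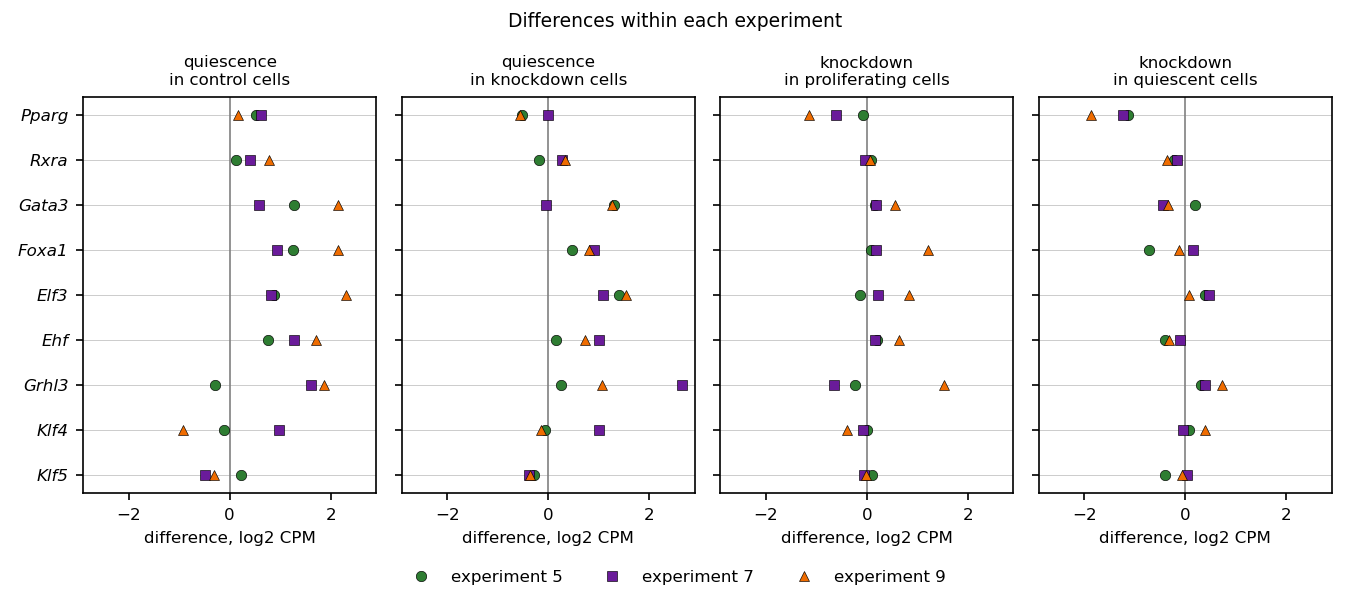
Difference in log2 CPM within each experiment (horizontal axes; positive is higher in quiescence or with sh4) for 9 factors in 4 comparisons. Foxa1, Elf3 and Ehf lie to the right of 0 in all 3 experiments for both quiescence comparisons, and Pparg lies to the left in all 3 for knockdown in quiescent cells, from -1.87 to -1.13.

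Over the 12 libraries Foxa1 and Ehf had the most similar pattern of any pair in the set, with a root mean square difference of 0.257 between their mean-centred log2 CPM values. Foxa1 and Elf3 followed at 0.351 and Elf3 and Ehf at 0.427. The libraries share state and experiment, so this likeness is a description. The 3 tested genes nearest to Gata3 were Id2 (0.222), an inhibitor of basic helix-loop-helix factors, B2m (0.273), the light chain of MHC class I, and Slc39a8 (0.293), a metal ion transporter. Nearest to Elf3 were Tjp3 (0.214), a tight junction scaffold, Tapbp (0.217), which helps load MHC class I, and Gm20300 (0.258). Nearest to Ehf were Aph1b (0.142), a subunit of gamma-secretase, Pof1b (0.160), an actin-binding protein of epithelia, and Tmco3 (0.180).

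Related factors were read beside the set. Of 35 other epithelial factors 27 could be tested. With quiescence in control cells 4 of these 27 were higher and 2 lower in edgeR. Over all genes 20.0% were called in either direction and 8.33% higher. The median log2 fold change of the 27 factors was 0.03. The 4 with the largest changes were Zfp750 (1.32, SE 0.33, adjusted p 0.0180), an epidermal differentiation factor, Ppard (-1.32, SE 0.28, adjusted p 0.00718), Grhl1 (1.12, SE 0.20, adjusted p 0.00284), a grainyhead factor, and Sox9 (0.89, SE 0.21, adjusted p 0.0125). Ppard stood at 183, 188 and 127 CPM in proliferating and 82.7, 64.2 and 53.0 CPM in quiescent control libraries, so every quiescent value was lower. In sh4 cells 2 rose (Grhl1 and Sox9) and 4 fell (Ppard, Foxa2, Klf10 and Trp53), and these names were taken after their values were seen. Over all genes 18.4% were called there in either direction and 7.59% higher.

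In quiescent cells with sh4, Rarg, a retinoic acid receptor that also pairs with RXR, was the listed factor that passed. It stood at 95.1, 97.5 and 95.1 CPM in control and 53.2, 58.1 and 55.3 CPM in sh4 libraries, a log2 fold change of -0.79 (SE 0.14, adjusted p 0.0360 in edgeR). With the block Gata6 was also called lower (-1.15, adjusted p 0.0238 in edgeR) and Vdr higher (2.37, adjusted p 0.0441 in edgeR), both named after their values were seen. Vdr was low, with 7 to 31 counts in quiescent control and 93 to 181 counts in quiescent sh4 libraries. Of 14 receptor co-regulators, such as Ncor1, Ncoa1 and Med1, 0 were called in any comparison in edgeR without the block. At most 2 of them had an unadjusted p under 0.05 in a comparison, and DESeq2 called at most 1. With quiescence in control cells, edgeR called 2481 of all 12406 genes and 4314 had such an unadjusted p, while DESeq2 called 3219. With the block 3 co-regulators were higher with quiescence in control cells and 3 in sh4 cells, against 16.8% and 15.9% of all genes. The median log2 fold change of the 14 co-regulators was 0.10 with quiescence in control cells and -0.17 with knockdown in quiescent cells.

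Genes that read out luminal, PPAR and basal programmes gave a mixed picture with quiescence in control cells. Of all 12406 genes tested, 1033 were called higher and 1448 lower in this comparison. Of 14 luminal genes 10 could be tested, and 1 rose and 1 fell, with a median of 0.44. Cldn4, a tight junction claudin, rose by 1.26 (SE 0.25, adjusted p 0.00544 in edgeR), and Krt20, the keratin of superficial cells, fell by 0.98 (SE 0.18, adjusted p 0.00391 in edgeR) on the log2 scale. Of 13 PPAR genes 7 could be tested and 1 rose, with a median of 0.19. Of 12 basal genes 11 could be tested and 4 fell, with a median of -0.73. Among them were Krt14 (-4.16), Krt5 (-2.03) and Cd44 (-1.99), with edgeR adjusted p-values of 0.0130 or less. In quiescent control libraries Krt14 had 3 to 15 counts and Krt5 6 to 20, so their fold changes rest on low counts.

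In sh4 cells the luminal genes Cldn4, Krt19 and Psca rose with quiescence and Krt20 fell. Of the 7 PPAR genes tested 1 rose and 1, the fatty acid carrier Fabp5, fell, and 6 basal genes fell. Of all 12406 genes tested, 941 were called higher and 1338 lower in this comparison. In quiescent cells the knockdown itself called none of the luminal, PPAR or basal genes in edgeR without the block. At an unadjusted p under 0.05 there were 2 luminal, 1 PPAR and 1 basal gene, and DESeq2 called 1 of each list. Of all 12406 genes tested, 1489 had such an unadjusted p in edgeR and DESeq2 called 390. With the block the knockdown comparison called Psca (2.40, adjusted p 0.0476 in edgeR) and Col17a1 (3.76, adjusted p 0.00599 in edgeR) higher. Col17a1 had 1 to 4 counts in quiescent control and 15 to 87 counts in quiescent sh4 libraries, so its fold change rests on a very low control level. None of the 7 PPAR genes tested was called with the block, where 3.55% of all genes were. Their median without the block was -0.13, beside 0.0157 over all genes. The names in this paragraph were taken after their values were seen, apart from Cldn4 and Krt20.

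**Figure D5:**
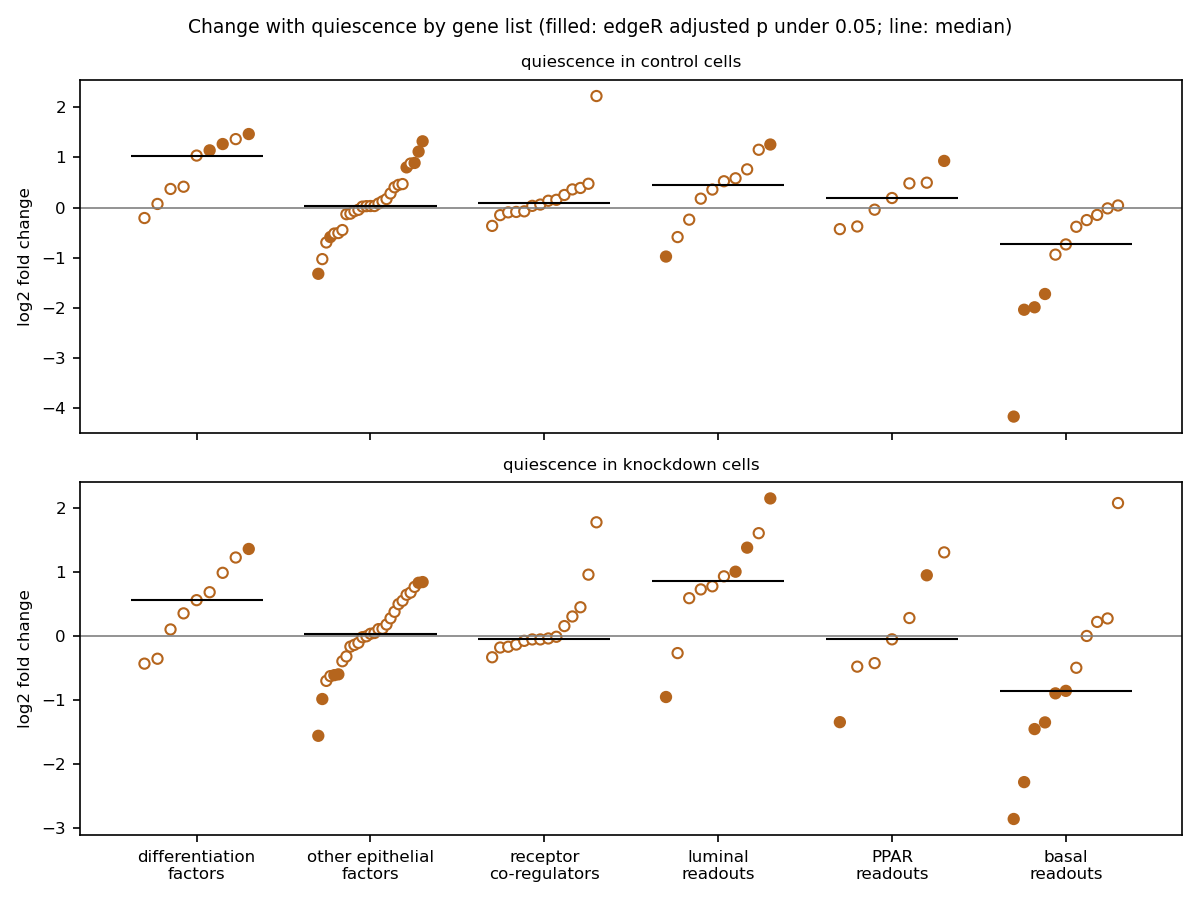
Log2 fold change with quiescence (vertical axes) of each tested gene in 6 lists (horizontal axis), in control cells (top) and sh4 cells (bottom), where filled points have an edgeR adjusted p under 0.05 and lines are list medians. In control cells the differentiation factors have a median of 1.04 and the basal genes of -0.73. The lists were chosen with earlier results of these data known.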

How the data were processed

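RNA sequencing was done on polyadenylated RNA with a stranded kit, after ERCC spike-ins were added to total RNA, per the labels' protocols. The submitters' processing notes name Bowtie, TopHat, HTSeq, DESeq2 and the mm10 build without versions. The annotation and the strand setting are not given in the sources used here. The authors deposited raw counts per gene symbol, whole numbers with no normalization, and 5762 rows had no count in any library. No ERCC rows were used.

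The analysis used edgeR 4.0.16 under R 4.3.3. The function filterByExpr (minimum count 10) kept 12406 genes. After TMM scaling, glmQLFit estimated 4 group means from the 12 libraries and glmQLFTest tested 5 contrasts, with Benjamini-Hochberg adjustment over the 12406 genes and a threshold of 0.05. The SE of a log2 fold change was derived from the test, as its absolute value divided by the square root of the F statistic of glmQLFTest. Log2 CPM values used a prior count of 2. The main fit has no block. Deviations from group means correlated between libraries of 1 experiment (mean r 0.526, 0.225 to 0.789 over 18 pairs), and the experiment number coincides with the batch in the labels, so the numbers pair the libraries. No replicate pair was identical, and the chi-square per degree of freedom was 36.6 or more. The script was tested on simulated data.

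The members and gene lists were chosen with earlier results of these data known. The genes named are the 10 members and Stag2, up to 4 called genes of each other list with the largest change with quiescence in control cells, listed genes called in a knockdown comparison, and the 3 nearest genes of each called member. Some genes that this rule names are not reported here. Gene positions, exon lengths and overlaps come from GENCODE release M21 (GRCm38). Alternatives were the replicate block, DESeq2 1.42.0, RLE size factors, no filter on low counts, a fit to only the libraries compared, and leaving out each library.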

Additional observations from a re-analysis of the deposited data

Results flagged for a closer look

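Ehf was picked from the 9 factors tested because its estimated sh4 effects had opposite signs in the 2 states within all 3 experiments. This agreement between experiments is the rule of choice and lends no support. The share of all genes that meet the rule was not counted. Within each of the 3 experiments Ehf was higher with sh4 in proliferating cells, by 0.16 to 0.64 on the log2 scale, and lower with sh4 in quiescent cells, by values of -0.41 to -0.10. Quiescent minus proliferating, the effects differed by -0.58 (SE 0.48, edgeR unadjusted p 0.258, adjusted p 0.9997), and -0.59 with the replicate block (edgeR unadjusted p 0.0497, adjusted p 0.999). It was negative in each of 12 fits that left out 1 library, from -1.05 to -0.18. The effect in proliferating cells alone ran from -0.10 to 0.77 in these fits and was below 0 without proliferating sh4 of experiment 5, where the directions were no longer opposite. The test of the difference did not pass after adjustment, and neither knockdown effect was called alone.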

How the results depend on the processing

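The experiment number pairs the libraries, and adding it as a replicate block raised the counts of calls in 3 comparisons. Called genes went from 54 to 440 for knockdown in quiescent cells, from 2481 to 4374 for quiescence in control cells and from 2279 to 4096 for quiescence in sh4 cells. Called factors went from 0 to 1, from 3 to 5 and from 1 to 4 in the same comparisons. The block changed no other call of a factor. The block lowered the common biological coefficient of variation from 0.261 to 0.161. DESeq2 called 12 genes for knockdown in proliferating cells (edgeR 3), 390 and 1 factor for knockdown in quiescent cells, and 6 for the interaction (edgeR 0, with 219 at an unadjusted p under 0.05). A fit to only the libraries compared called 1582 genes and 1 factor for quiescence in control cells (Elf3 adjusted p 0.0883, Ehf 0.0670) and 1 gene for knockdown in proliferating cells. Without 1 library the counts of genes ran from 1 to 3 and from 5 to 64 for knockdown in proliferating and quiescent cells, and from 1394 to 3078 and from 1186 to 2408 for quiescence in control and sh4 cells. Called factors then ran from 0 to 4 and from 0 to 2 for the quiescence comparisons. The cause was not tested, and these fits also had fewer libraries. Of 756 values of single factors under these settings, 686 kept direction and call, 25 lost and 11 gained a call, and 34 changed sign. Signs changed with the block for Klf4 with quiescence in control cells (-0.014) and Klf5 with knockdown in proliferating cells (0.0034, and 0.0042 with only those libraries). The other sign changes came from leaving out 1 library, on the log2 scale. For knockdown in proliferating cells the ranges were -0.10 to 0.77 (Ehf), -0.081 to 0.72 (Elf3), -0.12 to 1.15 (Grhl3), -0.40 to 0.13 (Klf4), -0.15 to 0.11 (Klf5) and -0.25 to 0.30 (Rxra). For knockdown in quiescent cells they were -0.57 to 0.16 (Foxa1), -0.47 to 0.27 (Gata3) and -0.36 to 0.70 (Klf4). For the interaction they were -0.43 to 0.38 (Elf3), -0.61 to 0.66 (Grhl3), -0.16 to 0.89 (Klf4) and -0.25 to 0.00052 (Klf5). With quiescence they were -0.53 to 0.40 (Klf4, control), -0.083 to 0.63 (Klf4, sh4) and -0.0804 to 0.39 (Rxra, sh4). Of the 9 detected factors, counts were lowest for Grhl3 (3 to 45 in a library) and Pparg (30 to 145), and what depth adds to their errors was not tested.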
